A study of Mus musculus with 15 samples.

Results

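Mesangial cells, pericytes and vascular smooth muscle cells are the contractile support cells of the kidney's capillaries and arterioles. The 10 genes followed here are those named as members of this group: the growth factor gene Pdgfb, its receptor genes Pdgfrb and Pdgfra, the support cell genes Des, Gata3 and Cspg4, and the smooth muscle genes Acta2, Myh11, Tagln and Cnn1. They were found by symbol among the 46078 genes of the count table, and all 10 passed the filter on low counts in each comparison. RNA was sequenced from the podocyte fraction of mouse kidney cortex, which was collected with nephrin antibodies and magnetic beads, so the members' reads came from a fraction that was not sorted for these cells.

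All mice were male C57BL/6J. Young mice were 4 months old and uninjected. Aged mice were 21 months old and received weekly intraperitoneal injections at 12 mg/kg for 8 weeks of the isotype control antibody (aged IgG2a) or of a neutralizing anti-PD-1 antibody (aged aPD1ab), and the titles of the aPD1ab samples give 47 days. There was no uninjected aged group and no injected young group, so age and injection cannot be told apart in the comparisons with young mice. Of the 5 samples per group in the labels, 5 young, 4 aged IgG2a and 4 aged aPD1ab libraries could be tied to a group. Replicate numbers below only name libraries.

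In the glomerulus, PDGF-B is released by endothelial cells and binds the receptor PDGFRB on mesangial cells and pericytes, which need this signal to be recruited to capillaries. PDGFRA is the related receptor of interstitial fibroblasts. Contractile cells fill their cytoplasm with smooth muscle actin, smooth muscle myosin and their partners, and the transcription factor SRF with its coactivator myocardin switches these genes on through a short DNA element, the CArG box.

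Libraries held 19912969 to 32717100 counted reads, and a member had between 12 and 3638 reads in a library. The 8 podocyte markers were detected in every group, and their summed level was 871 to 1412 CPM (library-size-scaled counts with edgeR's TMM factors) in young, 522 to 722 in aged IgG2a and 266 to 857 in aged aPD1ab libraries. Markers of other cells were present too, none of them without reads in any group. The 8 proximal tubule markers summed to 5027 to 8090 CPM in young, 696 to 3698 in aged IgG2a and 3839 to 11460 in aged aPD1ab libraries. The 8 macrophage and leukocyte markers summed to 1908 to 3496, 2821 to 8367 and 2150 to 4763 CPM. The 8 endothelial markers summed to 722 to 1071, 561 to 674 and 353 to 923 CPM. Mitochondrially encoded genes took 23.1% to 30.4% of reads in young, 29.3% to 54.9% in aged IgG2a and 20.4% to 38.5% in aged aPD1ab libraries. Aged IgG2a replicate 1 stood apart from the other 3 libraries of its group, with 3698 CPM of proximal tubule markers against 696 to 1128 and 2821 CPM of macrophage and leukocyte markers against 7166 to 8367. Calls of members in the comparisons that include it, and list counts that change, are therefore also given without it.

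**Figure D1:**
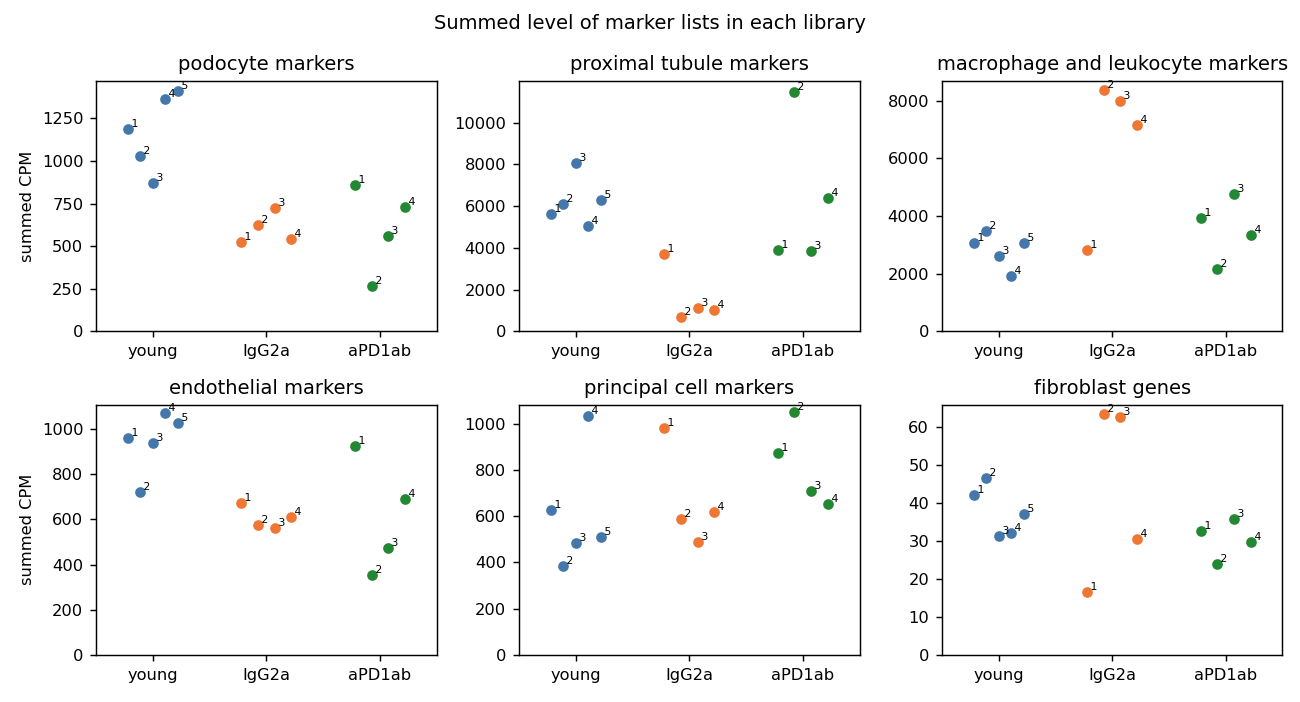
Summed CPM of 5 marker lists and of the fibroblast list (y axis) in each library, with 1 point per library, its replicate number beside it and the groups on the x axis. Aged IgG2a replicate 1 lies at 2821 CPM of macrophage and leukocyte markers, below the other 3 libraries of its group.

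The promoters of Acta2 and Cnn1, genes that were lowest in the same aged library, and of Des, which was highest in that library, are shown because contractile genes are known to share the CArG box. It is written as CC, then 6 letters that are A or T, then GG, and was searched on both strands with at most 1 other letter among the 6. The promoter table of RefSeq (GRCm38.p6) held 6 of the 10 members: Acta2, Cnn1, Des, Gata3, Cspg4 and Pdgfra. Each window covers 250 bases before the start site and 50 from it on, and the first 250 bases are printed 5′ to 3′ on the strand of the gene, with CArG boxes in capitals. Acta2 is read from the minus strand at chr19:34255374-34255623, Cnn1 from the plus strand at chr9:22099003-22099252 and Des from the plus strand at chr1:75360042-75360291.
Acta2: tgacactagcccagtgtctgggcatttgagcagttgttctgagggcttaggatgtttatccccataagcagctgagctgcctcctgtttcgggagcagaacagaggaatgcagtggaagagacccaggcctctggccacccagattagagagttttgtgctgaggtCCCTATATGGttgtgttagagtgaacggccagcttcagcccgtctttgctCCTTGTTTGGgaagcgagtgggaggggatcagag
Cnn1: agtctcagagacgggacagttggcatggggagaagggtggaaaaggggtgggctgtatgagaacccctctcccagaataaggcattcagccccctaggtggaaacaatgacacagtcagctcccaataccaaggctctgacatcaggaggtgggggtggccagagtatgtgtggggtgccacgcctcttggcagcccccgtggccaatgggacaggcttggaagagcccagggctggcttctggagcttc
Des: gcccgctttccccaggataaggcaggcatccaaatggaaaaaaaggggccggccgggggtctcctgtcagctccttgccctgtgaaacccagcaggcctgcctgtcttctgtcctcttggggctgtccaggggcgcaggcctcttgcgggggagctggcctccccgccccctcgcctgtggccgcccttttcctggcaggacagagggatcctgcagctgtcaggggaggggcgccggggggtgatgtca
Acta2 had 2 such boxes, CCCTATATGG from base -84 to -75 and CCTTGTTTGG from base -34 to -25 relative to the annotated start. Each has 1 letter other than A or T among the central 6. No box was found in the windows of the other 5 members. Of 32851 promoter windows of this length, 9.98% held such a box, and 1.63% held a box with A or T at each of the 6 positions. A match describes the letters only.

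The members differed widely in level. Per kb of exon, Acta2 was highest in young mice at 26.4 ± 5.63 CPM per kb (SD, n = 5), followed by Pdgfb at 16.4 ± 3.14, Tagln at 14.0 ± 2.69, Myh11 at 9.05 ± 1.61, Pdgfrb at 9.03 ± 0.896, Gata3 at 6.62 ± 1.86, Des at 4.31 ± 0.834, Cspg4 at 1.86 ± 0.271, Pdgfra at 1.08 ± 0.199 and Cnn1 at 0.799 ± 0.256. The neighbours Pdgfb and Tagln, Myh11 and Pdgfrb, Pdgfrb and Gata3, Gata3 and Des, and Pdgfra and Cnn1 differed by less than the sum of their SDs, and the other neighbours by more. In aged IgG2a mice Pdgfb was highest at 28.5 ± 9.68 CPM per kb (SD, n = 4), above Acta2 at 10.97 ± 1.75 and Tagln at 9.86 ± 2.50. Myh11 stood at 2.78 ± 0.415 and Pdgfrb at 3.81 ± 1.47 in that group. In aged aPD1ab mice Pdgfb was again highest at 20.2 ± 7.42 (SD, n = 4), Acta2 was at 9.13 ± 4.14 and Myh11 at 1.94 ± 1.09 CPM per kb.

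**Figure D2:**
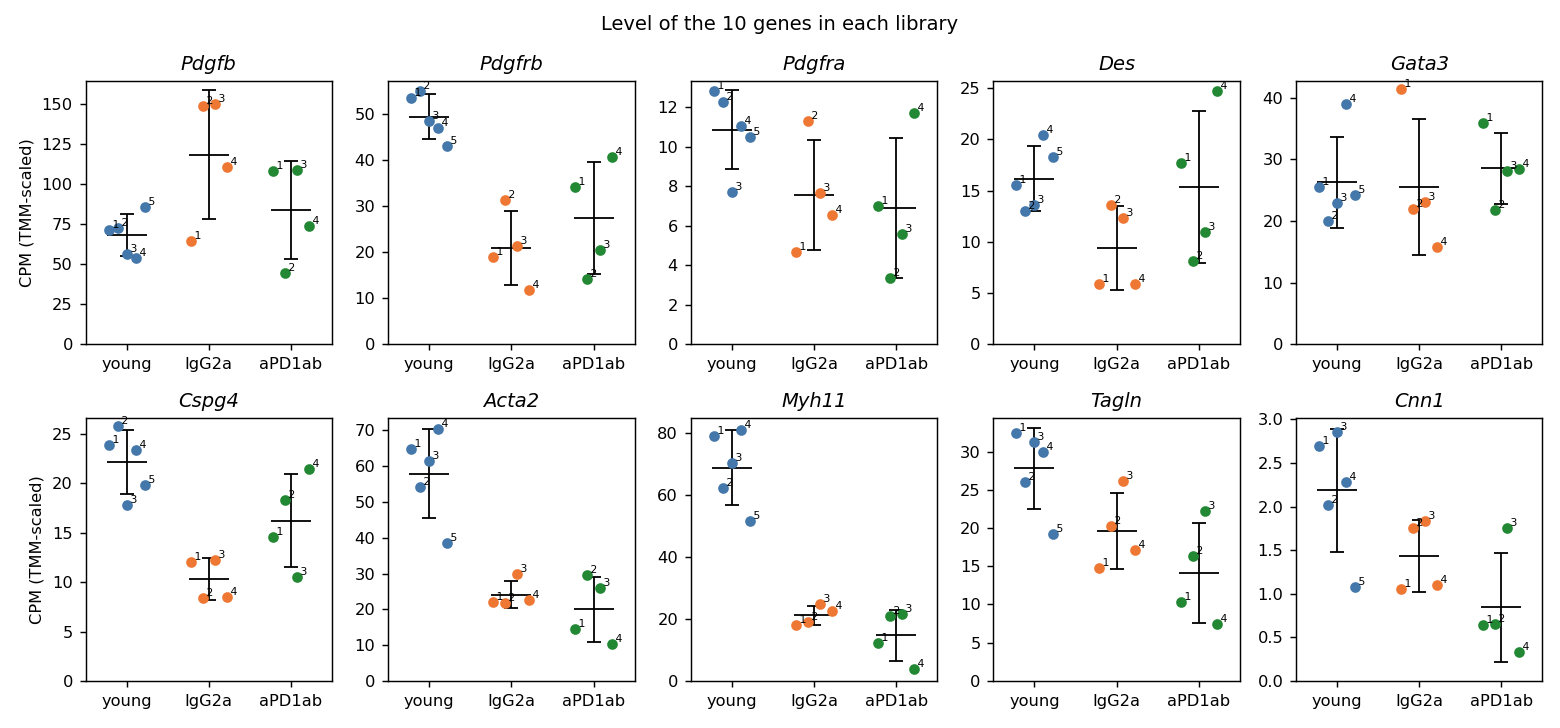
TMM-scaled CPM (y axis, from 0) of each of the 10 genes in each library, with 1 point per library, its replicate number beside it, and the mean and SD of each group in black. All 4 aged IgG2a libraries and all 4 aged aPD1ab libraries lie below the 5 young libraries for Pdgfrb, Acta2 and Myh11. The share of all genes that separate in this way is not given.

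The first comparison asks how the members differed between aged control-injected and young mice. Pdgfrb, Cspg4, Acta2 and Myh11 were lower in aged IgG2a mice, by 2.06-fold to 3.12-fold, and Pdgfb was higher by 1.83-fold. Des, Pdgfra, Tagln, Cnn1 and Gata3 did not pass the test. Thus 4 of 10 members were called lower, where 8.38% of the 15953 genes tested were, and 1 of 10 was called higher, where 9.05% were (edgeR's quasi-likelihood test, Benjamini-Hochberg adjusted p under 0.05 over all genes tested). Without aged IgG2a replicate 1 the same 5 members were called, with backgrounds of 23.5% lower and 22.1% higher among 16216 genes. In these bulk samples, fewer cells of a type and less RNA per cell cannot be told apart. The share of all genes whose groups do not overlap is not given here, so non-overlap only describes the values of a member.

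Pdgfb (ENSMUSG00000000489, chromosome 15, 79995874 to 80014977, GRCm38) encodes the ligand of both receptors. It was at 71.4, 72.5, 56.7, 53.7 and 85.8 CPM in young replicates 1 to 5 and at 64.6, 148.7, 150.0 and 110.6 CPM in aged IgG2a replicates 1 to 4. Replicate 1 lay within the young range and the other 3 lay above all young libraries. Its log2 fold change, with standard error (SE), was 0.87 (SE 0.25, edgeR adjusted p = 0.0399), and 1.06 without replicate 1 (SE 0.16, edgeR adjusted p = 0.000477). The call held in 4 of 15 alternatives, with log2 fold changes from 0.41 to 1.06 and adjusted p from 0.000285 (voom) to 0.196 (edgeR), and it was lost when any 1 library other than aged IgG2a replicate 1 was left out. The library with the low Pdgfb value was also the one low in macrophage and leukocyte markers (2821 CPM against 7166 to 8367), whose part in the result was not tested. Of 8 endothelial markers, 6 were called lower and 0 higher in the same group, where 8.38% of all genes tested were called lower. Without replicate 1, 7 of 8 were called lower, where 23.5% of all genes tested were. Which cells the Pdgfb reads came from was not tested.

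Pdgfrb (ENSMUSG00000024620), the receptor gene of mesangial cells and pericytes, was at 53.6, 55.1, 48.5, 47.0 and 43.1 CPM in young libraries. In aged IgG2a libraries it was at 18.9, 31.4, 21.3 and 11.9 CPM. The groups did not overlap, although the highest and the lowest aged library differed more than the young libraries did among themselves. The log2 fold change was -1.18 (SE 0.24, edgeR adjusted p = 0.0162), and -1.13 without replicate 1. Only without aged IgG2a replicate 3 did it miss the threshold among 15 alternatives (edgeR adjusted p = 0.0530). Pdgfra (ENSMUSG00000029231, chromosome 5, 75152292 to 75198215), the fibroblast receptor gene, was at 10.8 ± 1.99 CPM (SD, n = 5) across the young libraries and 7.55 ± 2.80 (SD, n = 4) across the aged IgG2a libraries, with a log2 change of -0.45 (SE 0.26, edgeR adjusted p = 0.226). Its groups overlapped.

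Cspg4 (ENSMUSG00000032911, chromosome 9, 56865033 to 56899870) encodes the pericyte surface proteoglycan NG2. Its young libraries were at 23.9, 25.8, 17.8, 23.4 and 19.9 CPM and its aged IgG2a libraries at 12.0, 8.42, 12.3 and 8.50 CPM. All 4 aged libraries lay below all young libraries, and the log2 fold change was -1.04 (SE 0.16, edgeR adjusted p = 0.00701). Des (ENSMUSG00000026208, chromosome 1, 75360329 to 75368579), which encodes the intermediate filament desmin of muscle and mesangial cells and of stressed podocytes, had a young mean of 16.2 ± 3.13 CPM (SD, n = 5). The aged IgG2a libraries fell on either side of a gap, at 5.86 and 5.87 CPM in replicates 1 and 4 and at 13.6 and 12.3 CPM in replicates 2 and 3. Its log2 fold change was -0.71 (SE 0.29, edgeR adjusted p = 0.105).

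Gata3 (ENSMUSG00000015619, chromosome 2, 9857078 to 9890034), a transcription factor gene of mesangial cells that is also used by collecting duct principal cells and T cells, differed between the groups by less than its spread, with 26.3 ± 7.39 CPM (SD, n = 5) across the young libraries and 25.5 ± 11.03 (SD, n = 4) across the aged IgG2a libraries. The log2 fold change was 0.016 (SE 0.27, edgeR adjusted p = 0.974), and it was -0.32 without replicate 1. Among these 9 libraries the highest Gata3 values were 41.4 CPM in aged IgG2a replicate 1 and 39.1 CPM in young replicate 4. Those libraries had 981 and 1033 CPM of the 6 principal cell markers, against 385 to 628 CPM in the other young and aged IgG2a libraries. The aged aPD1ab libraries did not share this order. Replicate 2 of that group had the most principal cell markers of the 13 libraries, at 1049 CPM, with Gata3 at 21.8 CPM. Replicate 1 had 874 CPM of the markers and 35.9 CPM of Gata3. The part of these cells in the Gata3 level was not tested.

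Of the 4 smooth muscle members, Acta2 and Myh11 were called lower. Acta2 (ENSMUSG00000035783, chromosome 19, 34241090 to 34255590), which encodes smooth muscle actin, was at 64.8, 54.1, 61.5, 70.5 and 38.5 CPM in young and at 22.1, 21.8, 29.8 and 22.7 CPM in aged IgG2a libraries. Every aged library lay below every young library, and the log2 fold change was -1.20 (SE 0.19, edgeR adjusted p = 0.00713). Myh11 (ENSMUSG00000018830, chromosome 16, 14194535 to 14291372), the smooth muscle myosin heavy chain gene and the most restricted marker of this cell type among the members, was at 79.1, 62.2, 70.1, 80.9 and 51.5 CPM in young and at 18.1, 19.0, 24.9 and 22.4 CPM in aged IgG2a libraries. Its groups were the farthest apart of all members, with a log2 change of -1.64 (SE 0.17, edgeR adjusted p = 0.00155).

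Tagln (ENSMUSG00000032085, chromosome 9, 45929619 to 45936058), which encodes the actin-binding protein transgelin, was at 32.5, 26.0, 31.2, 30.0 and 19.2 CPM in young and at 14.7, 20.3, 26.2 and 17.1 CPM in aged IgG2a libraries. The groups overlapped, and the log2 fold change of -0.44 (SE 0.20) had an edgeR adjusted p of 0.150. Cnn1 (ENSMUSG00000001349, chromosome 9, 22099216 to 22109630), the calponin gene, was at 2.19 ± 0.701 CPM (SD, n = 5) across the young libraries and 1.44 ± 0.414 (SD, n = 4) across the aged IgG2a libraries, on 16 to 72 reads. Its log2 fold change was -0.54 (SE 0.33, edgeR adjusted p = 0.262).

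Ratios of members within a library do not depend on how libraries are scaled. In young mice there were 0.371 to 0.445 Tagln CPM for each CPM of Myh11, and in aged IgG2a mice 0.765 to 1.07, without overlap. Acta2 to Myh11 was 0.747 to 0.877 in young and 1.015 to 1.22 in aged IgG2a mice, and Cnn1 to Myh11 was 0.021 to 0.0407 and 0.0494 to 0.0925. Each of these 3 ratios was higher in aged IgG2a mice by an exact permutation test of the log2 ratio (two-sided p = 0.0159, the smallest that 4 against 5 libraries allow, 0.0476 after Benjamini-Hochberg adjustment over 21 tests). Pdgfrb to Myh11, at 0.581 to 0.885 in young and 0.531 to 1.65 in aged IgG2a mice, was not found to differ (exact permutation p = 0.349, adjusted p = 0.431). Nor did Des to Myh11, at 0.262 to 0.714 in aged IgG2a mice (exact permutation p = 0.0635, adjusted p = 0.133), Cspg4 to Myh11, at 0.380 to 0.665 (exact permutation p = 0.0476, adjusted p = 0.125), or Pdgfrb to Acta2 (exact permutation p = 0.825, adjusted p = 0.825) pass after adjustment. These ratios were chosen after the values had been seen, and the adjustment covers only the 21 tests chosen. Their p-values therefore describe how the libraries separate and are no independent support for a difference. All but Pdgfrb to Acta2 have Myh11, the member with the lowest log2 fold change, as denominator. A higher ratio to Myh11 restates that larger difference, and the tests are not independent of each other.

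**Figure D3:**
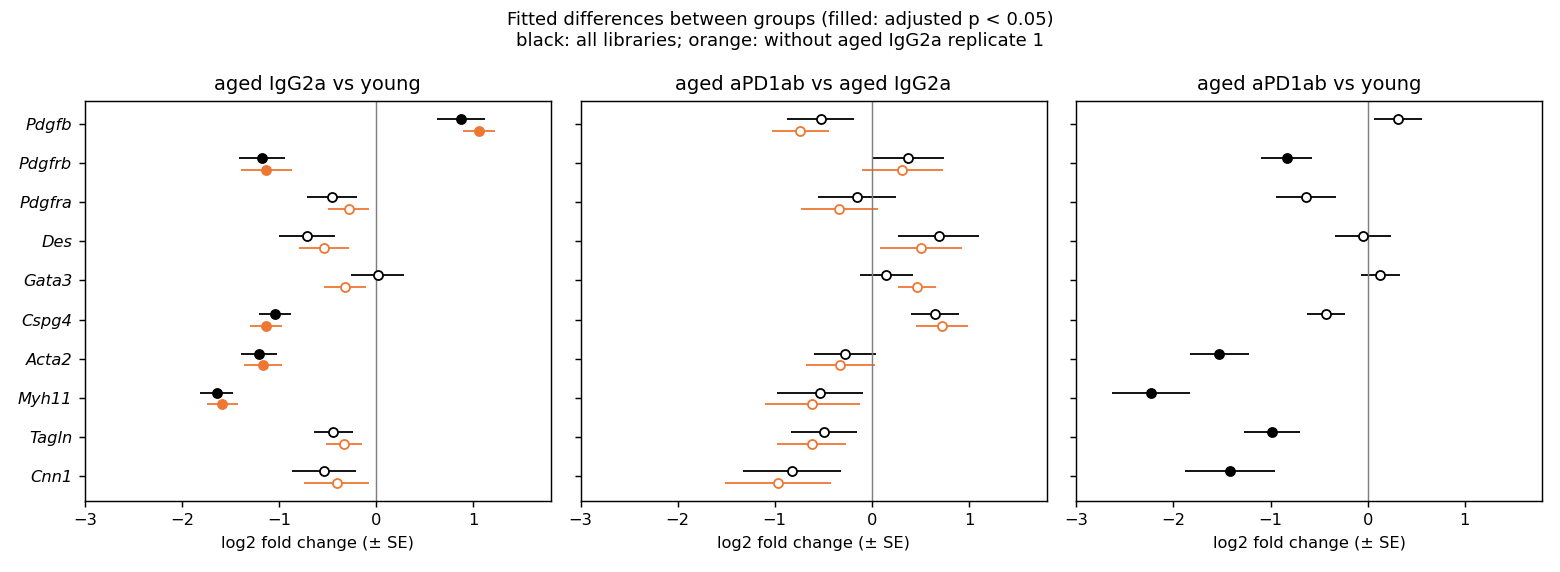
Log2 fold change of each of the 10 genes with its standard error, SE (x axis) in the 3 comparisons, over all libraries in black and without aged IgG2a replicate 1 in orange, with filled points at an edgeR adjusted p under 0.05. Filled points stand at Pdgfb, Pdgfrb, Cspg4, Acta2 and Myh11 on the left, at none in the middle and at Pdgfrb, Acta2, Myh11, Tagln and Cnn1 on the right.

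The other genes of these pathways were read from hand-written lists. In aged IgG2a against young mice, 8.38% of all genes tested were called lower and 9.05% higher. Without aged IgG2a replicate 1 these shares were 23.5% and 22.1%. Of 7 PDGF ligands and receptors, 6 were tested in aged IgG2a against young mice, 2 were called lower (Pdgfrb and Pdgfd) and 1 higher (Pdgfb). Pdgfd, another ligand gene of PDGFRB, had a log2 change of -0.71 (SE 0.16, edgeR adjusted p = 0.0217). The median of the list was -0.35, against 0.038 over all genes tested. Without aged IgG2a replicate 1, Pdgfc, a further ligand gene, was called lower too (-0.55, SE 0.15, edgeR adjusted p = 0.0130), which made 3 lower and 1 higher.

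Of 16 smooth muscle contractile genes, 5 of which are members, 15 were tested, 15 had a negative log2 fold change and 7 were called lower in aged IgG2a mice. Over all genes tested, 8.38% were called lower. The median of the list was -0.71. Mylk, the myosin light chain kinase gene, had a log2 change of -1.48 (SE 0.16, edgeR adjusted p = 0.00206), and the thin filament genes Cald1 and Tpm2 had -0.82 and -0.77. Lmod1 and Pln, a thin filament gene and the phospholamban gene, had -1.19 and -1.20. Tpm1, an abundant tropomyosin gene that many cells use, had -0.29 (edgeR adjusted p = 0.0803). Without aged IgG2a replicate 1, 9 of the 15 were called lower, where 23.5% of all genes tested were. Tpm1 (-0.29, edgeR adjusted p = 0.0391) and Smtn, the smoothelin gene (-0.50, edgeR adjusted p = 0.00102), were added, and the median was -0.54.

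Of 10 pericyte genes, 9 were tested, with a median of -1.16. In aged IgG2a mice 6 were called lower, where 8.38% of all genes tested were. Besides the members Pdgfrb and Cspg4 these were Rgs5, a regulator of G protein signalling (log2 fold change -1.18, SE 0.19, edgeR adjusted p = 0.00858), Notch3, the Notch receptor of mural cells (-1.39, SE 0.16, edgeR adjusted p = 0.00248), Abcc9 (-1.29) and Ndufa4l2 (-1.16). Of 7 mesangial genes, Pdgfrb and the angiotensin receptor gene Agtr1a (-1.03, SE 0.21, edgeR adjusted p = 0.0172) were called lower and 0 higher. Itga8, the α8 integrin gene of mesangial cells, had a log2 change of -0.62 (SE 0.21, edgeR adjusted p = 0.0658), and Serpine2 had 0.47 (edgeR adjusted p = 0.257).

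Of 8 contractile gene regulators, 6 were tested. Myocd, which encodes myocardin, was called lower (edgeR adjusted p = 0.0362) on 10 to 45 reads in young and 2 to 9 reads in aged IgG2a libraries. Mrtfa, a related coactivator gene that is widely used, was called higher, with a log2 change of 0.57 (SE 0.17, edgeR adjusted p = 0.0488), and Srf had 0.26 (edgeR adjusted p = 0.334). Of 2 renin cell genes, Akr1b7 was called lower, with a log2 change of -1.51 (SE 0.33, edgeR adjusted p = 0.0199), while Ren1 had -1.19 (SE 0.53, edgeR adjusted p = 0.137). Of 8 fibroblast genes, 6 were tested and Dcn, the decorin gene, was called higher, with a log2 change of 1.83 (SE 0.41, edgeR adjusted p = 0.0209). Col1a2, the most abundant of them, had -0.41 (edgeR adjusted p = 0.375). Without aged IgG2a replicate 1, 7 were tested and 3 were called higher, where 22.1% of all genes tested were. These were Dcn (2.11), Col1a1 (2.08, edgeR adjusted p = 0.00597) and Lum (2.12, edgeR adjusted p = 0.0201). The median of the list went from 0.88 to 1.21. In the pericyte, mesangial, contractile regulator and renin cell lists the counts of calls were the same without that library. In that setting 23.5% of all genes tested were called lower and 22.1% higher, against 8.38% and 9.05% over all libraries. The lower calls, 2 of 7 mesangial genes and 1 of 6 regulators tested, were then near the share over all genes.

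The second comparison asks how the members differed between aged mice given aPD1ab and aged mice given IgG2a. None of the 10 was called, and neither was any other gene: 0.0% of the 15530 genes tested passed, with a lowest edgeR adjusted p of 0.102, although 4341 genes had an unadjusted p under 0.05. DESeq2 called 2087 of 15453 genes tested and 0 members. Without aged IgG2a replicate 1, 30.4% of 15770 genes were called and still 0 members. The 4 smooth muscle members had negative and Des, Cspg4 and Pdgfrb positive log2 fold changes, over all libraries and in all 14 alternatives.

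Myh11 was at 12.4, 20.8, 21.7 and 3.99 CPM in aged aPD1ab replicates 1 to 4, so replicates 1 and 4 lay below every aged IgG2a library. Acta2 was at 14.5, 29.5, 25.9 and 10.3 CPM, with replicates 1 and 4 again below every aged IgG2a library. Tagln was at 10.3, 16.4, 22.2 and 7.47 CPM, and Cnn1 at 0.640, 0.651, 1.76 and 0.337 CPM. The log2 fold changes against aged IgG2a were -0.53 for Myh11 (SE 0.44, edgeR adjusted p = 0.443), -0.27 for Acta2 (SE 0.32), -0.49 for Tagln (SE 0.34) and -0.82 for Cnn1 (SE 0.51). None of the 4 exceeded 2 SE.

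Among the receptor and support cell members, Pdgfrb and Des were highest within the aged aPD1ab group in replicates 1 and 4, its libraries lowest in Myh11 and Acta2. Pdgfrb was at 34.2, 14.3, 20.5 and 40.8 CPM in aged aPD1ab replicates 1 to 4, with replicates 1 and 4 above every aged IgG2a library. Des was at 17.7, 8.10, 10.997 and 24.7 CPM, again with replicates 1 and 4 above every aged IgG2a library and replicate 4 above every young library. Cspg4 was at 14.6, 18.3, 10.5 and 21.4 CPM, with 3 libraries above every aged IgG2a library. The log2 fold changes were 0.37 for Pdgfrb (SE 0.37), 0.69 for Des (SE 0.41, edgeR adjusted p = 0.296) and 0.65 for Cspg4 (SE 0.24, edgeR adjusted p = 0.137).

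Thus aged aPD1ab replicate 4 had the least Myh11, Acta2, Tagln and Cnn1 of the 13 libraries and the most Des. It held 10.2 CPM of Pdgfrb for each CPM of Myh11, replicate 1 held 2.77, replicates 2 and 3 held 0.685 and 0.945, and the young libraries 0.581 to 0.885. The ratio did not pass the exact permutation test against aged IgG2a mice (p = 0.286, adjusted p = 0.400, with 0.0286 the smallest that 4 against 4 libraries allow), and none of the other 6 ratios did, with adjusted p from 0.150 to 0.690. Aged aPD1ab replicate 2, lowest in Pdgfrb, Pdgfra and Des within its group, had the most proximal tubule markers (11460 CPM against 3839 to 6411 in the other 3) and the fewest podocyte markers (266 CPM against 561 to 857). The part of these cells in the order of the libraries was not tested.

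**Figure D4:**
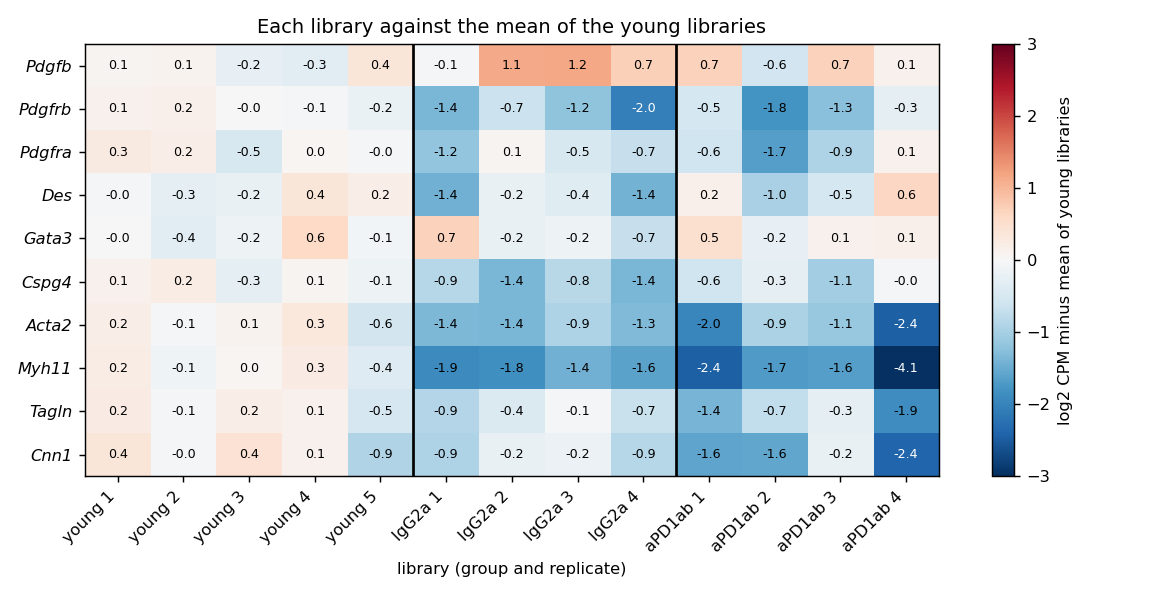
Log2 CPM (prior count 2) of each of the 10 genes (rows) in each of the 13 libraries (columns), minus the mean of the 5 young libraries, as colour and number. In aged aPD1ab replicate 4, Myh11 stands at -4.1 and Des at 0.6.

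Pdgfb was at 108.1, 44.7, 109.0 and 73.8 CPM in aged aPD1ab libraries and overlapped both other groups, with a log2 fold change against aged IgG2a of -0.53 (SE 0.34, edgeR adjusted p = 0.334) over all libraries and -0.74 (SE 0.29, edgeR adjusted p = 0.0875) without replicate 1 of aged IgG2a. The libraries highest in Pdgfb, replicates 1 and 3, were also those highest in macrophage and leukocyte markers in this group, at 3932 and 4763 CPM against 2150 and 3348. Endothelial markers summed to 923, 353, 473 and 688 CPM in aged aPD1ab replicates 1 to 4. The part of either cell type in the Pdgfb level was not tested. Pdgfra was at 6.89 ± 3.53 CPM (SD, n = 4) and Gata3 at 28.5 ± 5.79 (SD, n = 4), and their log2 fold changes were -0.15 (SE 0.40) and 0.15 (SE 0.27). Voom from limma was run with a weight per library that lowers the influence of deviating ones. It called 5 members lower with aPD1ab (Pdgfb, Acta2, Myh11, Tagln and Cnn1, at -0.75, -0.86, -1.61, -1.14 and -1.64), where 18.9% of all genes tested were. Cspg4 was called higher at 0.79, where 20.9% were. Aged aPD1ab replicate 4 was the library lowest in Acta2, Myh11, Tagln and Cnn1. Without it, edgeR gave log2 fold changes of -0.054, -0.21, -0.28 and -0.54 for these genes, and none was called. With all libraries edgeR had called none of them either, and voom was not run without that library. A fit of all 3 groups together called Cspg4 higher (log2 fold change 0.66, edgeR adjusted p = 0.0491) and no other member, where 1861 of 16330 genes tested were called higher.

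In the lists, no gene was called in this comparison over all libraries. All 7 mesangial genes, among them the members Pdgfrb, Des and Gata3, had positive log2 fold changes. Their median was 0.37 against -0.011 over all genes tested, and Agtr1a had 0.96 (SE 0.32, edgeR adjusted p = 0.123). The summed level of the list was 245, 172.5, 158 and 327 CPM in aged aPD1ab replicates 1 to 4. Replicates 2 and 3 thus lay within the 97.2 to 233 CPM of the aged IgG2a libraries. Of 9 pericyte genes tested, 2 were negative, Rgs5 at -0.46 and Notch3 at -0.14. Of 15 contractile genes tested, 8 were negative. Myl9, a myosin light chain gene, had 0.62 (SE 0.24, edgeR adjusted p = 0.142) and Mylk 0.47 (SE 0.19, edgeR adjusted p = 0.155), and in aged aPD1ab replicate 4, where Myh11 was lowest, Myl9 was at 45.4 CPM, within the 34.0 to 47.6 CPM of young libraries. Without aged IgG2a replicate 1, Smtn was called higher (0.76, edgeR adjusted p = 0.0158), and Mrtfa and Mrtfb (-0.83 and -0.49) and the collagen gene Col1a1 (-1.73) were called lower. These were 1 of 15 contractile, 2 of 6 regulator and 1 of 7 fibroblast genes tested, where 30.4% of all genes tested were called. No mesangial, pericyte, renin cell or PDGF gene was called in that setting.

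The third comparison sets aged aPD1ab against young mice, and it shares its young libraries with the first. Myh11, Acta2, Tagln, Cnn1 and Pdgfrb were lower, by 1.78-fold to 4.69-fold. Of 10 members 5 were called lower, where 9.97% of 15986 genes tested were, and 0 were called higher, where 12.4% were. All 4 smooth muscle members were among the 5, while Des, Gata3 and Pdgfra were not called in either comparison with young mice.

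For Myh11 the log2 fold change was -2.23 (SE 0.40, edgeR adjusted p = 0.00644), against -1.64 in aged IgG2a mice. For Acta2 it was -1.53 (SE 0.30, edgeR adjusted p = 0.00808), against -1.20. Both had all 4 aged aPD1ab libraries below all young libraries and were called in each of 15 alternatives. Tagln had -0.98 (SE 0.29, edgeR adjusted p = 0.0346) and Cnn1 -1.41 (SE 0.46, edgeR adjusted p = 0.0498), and these calls held in 8 and 7 of the 15 alternatives. Both were lost without aged aPD1ab replicate 1 or 4 or any 1 of young replicates 1 to 4, with edgeR adjusted p up to 0.0752 and 0.112, and Cnn1 also without aged aPD1ab replicate 2.

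Pdgfrb had a log2 fold change of -0.83 against young mice (SE 0.26, edgeR adjusted p = 0.0457), against -1.18 in aged IgG2a mice, and its call held in 6 of 15 alternatives. It was lost without aged aPD1ab replicate 3 or any 1 young library, with edgeR adjusted p up to 0.106. Its aged aPD1ab libraries, at 14.3 to 40.8 CPM, lay below the 43.1 to 55.1 CPM of young libraries. Cspg4 had -0.43 (SE 0.20, edgeR adjusted p = 0.138), Pdgfra -0.63 (SE 0.31, edgeR adjusted p = 0.164), Des -0.051 (SE 0.29, edgeR adjusted p = 0.917), Pdgfb 0.31 (SE 0.25, edgeR adjusted p = 0.383) and Gata3 0.13 (SE 0.20, edgeR adjusted p = 0.679). The difference between the aged groups is the second comparison, in which none of these passed.

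The ratios of Tagln and of Acta2 to Myh11 were again higher than in young mice, at 0.787 to 1.87 and 1.175 to 2.59 (exact permutation p = 0.0159 each, adjusted p = 0.0476). Des to Myh11 was 0.389 to 6.20 in aged aPD1ab and 0.194 to 0.355 in young mice, and Cspg4 to Myh11 was 0.487 to 5.37 and 0.254 to 0.414, both without overlap and with the same exact permutation p. Myh11, their shared denominator, had the lowest log2 fold change of the members here too, so these tests are not independent of each other. The ratios had been chosen after the values were seen, so here too the p-values only describe how the libraries separate. Cnn1 to Myh11, at 0.0313 to 0.0845 in aged aPD1ab mice, overlapped the young range and did not pass (exact permutation p = 0.0635, adjusted p = 0.133), and neither did Pdgfrb to Myh11 (exact permutation p = 0.0794, adjusted p = 0.150) or Pdgfrb to Acta2 (exact permutation p = 0.317, adjusted p = 0.417).

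Over all genes tested in this comparison, 9.97% were called lower and 12.4% higher. Of the contractile list, 11 of 15 genes tested were called lower and 0 higher than in young mice. The median was -0.98 against 0.017 over all genes. Besides the 4 members, the genes called lower included Mylk (-1.05), Cald1 (-0.82), Tpm2 (-0.60), Lmod1 (-1.56), Synpo2 (-1.39), Myom1 (-0.89) and Pln (-1.59). Myl9 and Smtn had -0.019 and 0.24 and were not called. Of 9 pericyte genes tested, 4 were called lower: Pdgfrb, Rgs5 (-1.68, SE 0.32, edgeR adjusted p = 0.00727), Notch3 (-1.58, SE 0.14, edgeR adjusted p = 0.0017) and Ndufa4l2 (-0.82).

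Of 7 mesangial genes, Pdgfrb was called lower and Serpine2 higher (0.77, SE 0.23, edgeR adjusted p = 0.0353), while Itga8 had -0.42 (edgeR adjusted p = 0.304). Myocd, Mrtfb and Heyl were called lower among 6 contractile gene regulators tested, with Myocd on 0 to 4 reads in each aged aPD1ab library. Pdgfa, the ligand gene of PDGFRA, was called higher (0.70, SE 0.15, edgeR adjusted p = 0.00998) and Pdgfd lower (-0.79, SE 0.15, edgeR adjusted p = 0.00768). Akr1b7 was called lower (-1.705) of the renin cell genes, and no fibroblast gene was called.

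Likeness of pattern was measured by Pearson's r of log2 CPM (prior count 2) over the 13 libraries against 14087 other genes with a mean of at least 1 CPM, as a description, since the points share libraries, scaling and groups. Myh11 and Acta2 were most like each other and Rgs5 and Sparcl1: Acta2 had r = 0.976 with Myh11, 0.975 with Rgs5 and 0.953 with Sparcl1, and Myh11 had 0.979 with Sparcl1 and 0.976 with Rgs5. Tagln was nearest to Cnn1 (r = 0.958), Rgs5 (0.949) and the laminin gene Lamc3 (0.940). Cnn1 was nearest to Tagln, Ldb3 (0.912) and Tmed7 (0.908). With the group means taken out, Acta2 and Myh11 had r = 0.908. Aged aPD1ab replicate 4 was the lowest library for both genes, and its weight in this value was not tested.

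The support cell members had other neighbours. Pdgfrb was nearest to Gucy1a1 (r = 0.954) and Gucy1b1 (0.949), the genes of both subunits of the nitric oxide receptor, and then to Atp1b2 (0.932). Pdgfra was nearest to Gucy1a1 (0.893), Ccl22 (0.885) and Arhgap23 (0.882). Des was nearest to Gdf10 (0.955), Sfrp2 (0.925) and 2700081O15Rik (0.921). Cspg4 was nearest to Itgb2l (0.944), Slc16a14 (0.942) and Hspa12a (0.919), and the last of these had r = 0.670 once group means were taken out. Gata3 was nearest to Csrp1 (0.954), Ccdc126 (0.916) and Amigo2 (0.909), and Pdgfb to Cmtm3 (0.981), Ramp1 (0.976) and Gm38158 (0.975). No neighbour named for Pdgfrb, Pdgfra, Des, Cspg4, Gata3 or Pdgfb was a member.

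How far reads could be assigned to a member was read from the GENCODE M21 annotation. Transcripts were compared in their own orientation only, not with the opposite strand. In this search Pdgfb, Pdgfrb, Des, Cspg4, Tagln and Cnn1 shared no run of 50 bases with the transcripts of another gene. Acta2 shared 0.326% of its runs, with Actg1 and Actg-ps1 among others, Myh11 shared 0.34%, with Myh9 and Myh10, and Gata3 and Pdgfra shared 0.731% and 0.12%. Tagln overlaps the exons of Pcsk7 on the opposite strand by 108 bases, and Pcsk7 had up to 1381 reads in a library. Reads in that overlap cannot be assigned, since the strand setting of the counting is not given in the sources used here. Other genes overlapping the exons of Des, Gata3, Pdgfra or Tagln had at most 32 reads in a library.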

How the data were processed

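Per the labels, the authors' processing named HISAT2 and featureCounts, without versions, and the builds mm10 and GRCm38. The deposited table holds whole-number counts of reads per Ensembl gene, not normalized. Column numbers were tied to groups through the numbered points of the study's principal component plot, which left 2 of 15 columns without a group, and these were not used. Symbols and positions came from GENCODE M21 (GRCm38), which named 45229 of 46078 genes.

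The 3 comparisons were fitted separately with edgeR 4.0.16 in R 4.3.3 (quasi-likelihood, robust, TMM, filterByExpr), with Benjamini-Hochberg adjustment over all genes tested and calls at an adjusted p under 0.05. Levels are CPM over 13 libraries with TMM. Alternatives used DESeq2 1.42.0, DESeq2 size factors, limma 3.58.1 (voom), no filter, a joint fit and each library left out. Total-count scaling was added after seeing the data. The fit was tried on simulated counts with known fold changes and the same spread for all genes. No deviating library was simulated, so that trial does not cover a library like aged IgG2a replicate 1. Same-group libraries differed by at least 12.7 times the sampling noise (chi-square per degree of freedom), so none was counted as a repeat. Each library is listed as a separate animal, and precision covers counting error and spread between animals only. All 10 members are named; in lists, the 2 most abundant and those called were to be named, of which the text gives a selection made after seeing values. Members and lists were chosen with earlier results of these data known.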

Additional observations from a re-analysis of the deposited data

Results flagged for a closer look

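In 30 groups of 4 or 5 libraries (10 members in 3 groups), 2 libraries lay far from the rest of their group by Dixon's criterion, which flags about 1 group in 20 by chance. Gata3 in young replicate 4 was at 39.1 CPM, where the other 4 young libraries were at 20.1 to 25.5 CPM. Acta2 in aged IgG2a replicate 3 was at 29.8 CPM, where the other 3 libraries were at 21.8 to 22.7 CPM, all of them below the young libraries.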

How the results depend on the processing

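The called members kept their direction in every alternative run. In aged IgG2a against young mice, Acta2, Myh11 and Cspg4 passed in each of 15 alternatives. Leaving out 1 library gave 3 to 5 called members, with 3 without aged IgG2a replicate 3, which lost Pdgfrb and Pdgfb. In aged aPD1ab against aged IgG2a mice, 0 members passed with any 1 library left out, 1 passed in the fit of all 3 groups and 6 with voom. In aged aPD1ab against young mice, leaving out 1 library gave 2 to 4 called members, 2 without young replicate 1, 2, 3 or 4 and 3 without aged aPD1ab replicate 1, and 3 passed without the filter on low counts. Total-count scaling, chosen after seeing the data, moved the median gene by -0.42, 0.25 and -0.12 (log2) in the 3 comparisons, and in the first it added Des, Tagln and Pdgfra to the lower calls and ended that of Pdgfb (0.41). Over all genes it turned 1337 lower and 1443 higher calls of the first comparison into 3380 and 331, and 1594 and 1984 of the third into 1632 and 856. Calls over all genes were 2780, 0 and 3578 in the 3 comparisons and ranged from 553 to 7447, from 0 to 6177 and from 2369 to 4488 in the alternatives.

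Values that turned sign were small. Gata3 in aged IgG2a against young mice was -0.039 in the fit of all 3 groups, -0.013 without the filter, -0.34 with total-count scaling and -0.10 with voom, and ranged from -0.32 to 0.20 with 1 library left out. In aged aPD1ab against aged IgG2a mice, Pdgfra was 0.17 with total-count scaling and -0.54 to 0.11 with 1 library left out, and Gata3 was -0.015 to 0.46. In aged aPD1ab against young mice, Des was 0.23 with voom and -0.39 to 0.16 with 1 library left out, and Gata3 was -0.0046 to 0.31. The cause was not tested. No paired analysis was possible because the columns carry no replicate numbers shared between groups. Cnn1, on 12 to 72 reads, is the member most limited by depth.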
